A study of Mus musculus with 4 samples.

Results

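The cells described here are the differentiating muscle cells of mouse fracture callus, defined by *Myog*, the gene of the myogenic transcription factor myogenin. They were selected on raw counts of unique molecular identifiers (UMIs, each 1 captured mRNA molecule): a cell had at least 2 *Myog* UMIs, at least 1 *Des* UMI (desmin, the muscle intermediate filament) and no *Ptprc* UMI (CD45, the pan-leukocyte antigen). Of 25479 cells that passed the limits on depth, 141 met this rule and are called Myog-positive. They were set beside 812 cells with at least 1 *Pax7* UMI, the muscle stem cell factor, and at most 1 *Myog* UMI, called Pax7-positive. Because these 4 genes chose the cells, their levels are given as a description and were not tested.

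The study asked how systemic inflammation alters fracture repair, and sequenced single cells of callus from a fractured right tibia of male wild-type C57BL/6J mice aged 3 months. RA mice received 100 µL of K/BxN serum, which transfers an antibody-driven arthritis, into the peritoneum on the day of fracture, 3 days later and then at intervals of 5 days, and control mice received vehicle. Libraries were made, 1 each, from control and RA callus at 4 and 7 days post fracture (dpf), here control_4d, control_7d, RA_4d and RA_7d. Each library came from a pool of callus, for which the labels give 4 samples and the methods of the study 3, and from 10000 loaded cells, so mice within a pool cannot be told apart and a condition has no replicate. Runs of 4 values below follow the order control_4d, control_7d, RA_4d and RA_7d, and levels are summed UMIs of the cells per 1000000 of their UMIs (CPM). The Myog-positive cells held 953815, 1177746, 421575 and 775631 UMIs, and the Pax7-positive cells 4013115, 3777714, 2106104 and 3585438. All intervals are 95% intervals for counting error only.

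Skeletal muscle regenerates from muscle stem cells (satellite cells), which are marked by *Pax7* and lie beneath the basal lamina of the fibre. Once activated they switch on *Myod1*, divide, and on induction of *Myog* leave the cell cycle, make the proteins of the contractile apparatus and fuse into multinucleated myotubes. Notch signalling is known to hold stem cells undifferentiated, and the earliest sarcomeres use embryonic and cardiac isoforms that adult fibres later replace. A tibial callus forms beside muscle, and whole fibres are too large for a droplet, so dissociated tissue can yield mononucleated myoblasts and myocytes but not mature fibres.

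The gate was well filled above its threshold. The median number of *Myog* UMIs in a Myog-positive cell was 36, 18, 8 and 22, with a highest value of 204, and 61 of the 141 cells had 30 or more. Just inside the threshold lay 10 cells with 2 *Myog* UMIs, and just outside it 27 cells with 1 *Myog* UMI that met the other conditions. Of 168 cells with at least 2 *Myog* UMIs, 9 had no *Des* UMI and 23 had a *Ptprc* UMI, 3 of which were called as doublets. Among the members, 0, 1, 0 and 3 cells were called as doublets, and the 3 of RA_7d bear on several results below. Between 10 and 31 cell barcodes recurred in each pair of libraries, and none of them belonged to a Myog-positive cell in both. The summed level of *Myog* was 1857, 1488, 1219 and 1849 CPM in Myog-positive cells, 0.997, 0.794, 0.475 and 0.837 CPM in Pax7-positive cells and by the rule 0 in 10330 leukocytes (cells with at least 2 *Ptprc* UMIs and no *Myog* UMI), whose levels of other genes are given below for comparison. *Pax7* remained detectable in 20, 31, 11 and 19 of the members, 81 of 141.

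The muscle markers that the rule did not use were present. *Actc1*, the cardiac-type actin of developing muscle, was at 898, 813, 472 and 1164 CPM in Myog-positive cells, and *Acta1*, skeletal muscle actin, at 871, 1338, 187 and 1221 CPM. Markers of other cell types ranged from absent, for T cell genes, to abundant, for mesenchymal genes at 7 dpf. The T cell genes *Cd3e*, *Cd3d*, *Trac* and *Trbc2* were at 0 UMIs in all 4 libraries, and of the 4 neutrophil genes 2, 2, 1 and 2 were at 0, the list summing to 4.19, 10.2, 35.6 and 7.74 CPM. The 8 macrophage markers summed to 64.0, 56.0, 40.3 and 47.7 CPM, led by *Lyz2*, against 16022.8, 16345.5, 11057.2 and 15233.9 CPM in leukocytes. The 7 mesenchymal markers, led by *Col3a1*, summed to 367, 2860.5, 259 and 2495 CPM, and without the called doublets to 367, 2557, 259 and 627 CPM. The 6 endothelial markers, led by *Pecam1*, summed to 4.19, 54.3, 4.74 and 74.8 CPM (4.19, 54.9, 4.74 and 26.2 without the doublets) and the 5 Schwann cell markers to 3.15, 28.0, 4.74 and 5.16 CPM. The 6 mural cell markers summed to 2392.5, 1949.5, 1053.2 and 1555 CPM. Nearly all of that was smooth muscle actin *Acta2* (2319, 1882, 951 and 1512 CPM), and *Rgs5*, *Myh11* and *Kcnj8* were each below 2 CPM in every library. The 4 haemoglobin genes of red cells summed to 551, 164, 2.37 and 245 CPM, against 708, 926, 32.2 and 617 CPM in leukocytes. The mitochondrial share of UMIs had a median of 4.52%, 4.09%, 4.14% and 4.08% in Myog-positive cells and of 2.14%, 2.50%, 2.05% and 2.33% in all kept cells.

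Myog-positive cells were a small part of the callus in every library. There were 32 of 5470 kept cells in control_4d (0.585%, exact Clopper-Pearson interval 0.400 to 0.825), 57 of 7676 in control_7d (0.743%, 0.563 to 0.961), 11 of 4110 in RA_4d (0.268%, 0.134 to 0.478) and 41 of 8223 in RA_7d (0.499%, 0.358 to 0.676). The share in RA callus was 0.457 times that of control callus at 4 dpf (0.208 to 0.931) and 0.671 times at 7 dpf (0.438 to 1.02). Which of these intervals held 1 depended on the setting. The interval at 7 dpf lay below 1 without doublets (0.639, 0.412 to 0.983), with a gate of at least 1 *Myog* UMI (0.663, 0.450 to 0.970) and among cells without a *Ptprc* UMI (0.539, 0.352 to 0.819), and the interval at 4 dpf reached past 1 when cells were thinned to 4000 UMIs (0.370, 0.107 to 1.03). From 4 to 7 dpf the ratio was 1.27 (0.809 to 2.02) in control and 1.86 (0.940 to 4.02) in RA callus, and both intervals held 1. In RA callus it lay above 1 with a gate of at least 1 (2.04, 1.07 to 4.22) or 3 *Myog* UMIs (2.28, 1.09 to 5.33) and with thinned cells (2.70, 1.02 to 8.98). Pax7-positive cells made up 3.14%, 3.06%, 2.77% and 3.54% of kept cells, an RA to control ratio of 0.882 (0.690 to 1.12) at 4 dpf and 1.16 (0.970 to 1.38) at 7 dpf. Of the cells of both gates together, 15.7%, 19.5%, 8.80% and 12.3% were Myog-positive. The RA to control ratio of that share was 0.561 (0.255 to 1.14) at 4 dpf and 0.633 (0.413 to 0.962) at 7 dpf. With 1 library a condition these ratios were not tested, and library and condition cannot be told apart.

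**Figure D1:**
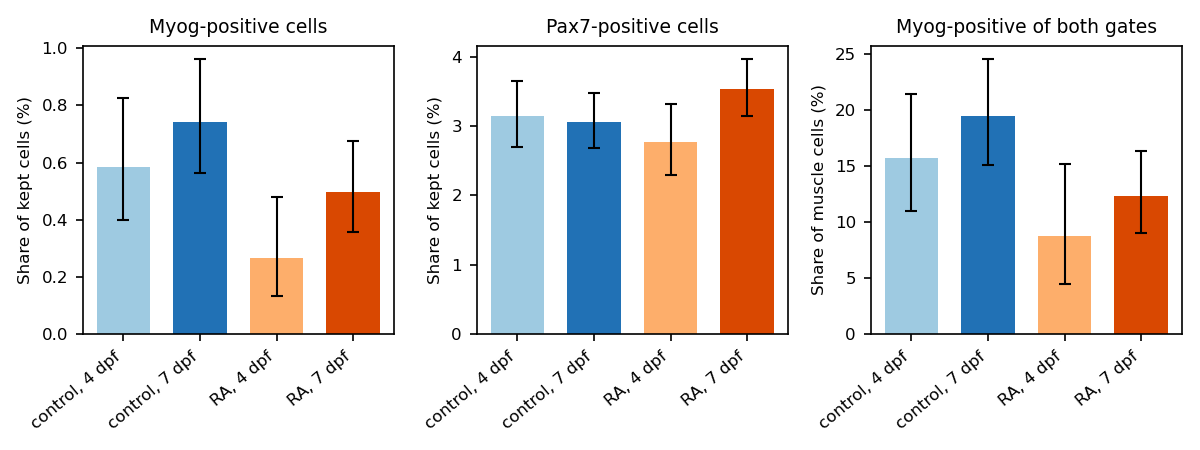
Share of Myog-positive cells among kept cells (left), of Pax7-positive cells among kept cells (middle) and of Myog-positive cells among the cells of both gates (right), in percent, in each of the 4 libraries; bars are single libraries and error lines exact 95% binomial intervals. The Myog-positive share was lowest in RA_4d (0.268%) and highest in control_7d (0.743%).

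The upper limits on depth bore on these shares. In control_4d, 22 of 54 barcodes that met the gate (40.7%, 27.6 to 55.0) had more than 50000 UMIs or 7000 genes and were left out, and in RA_4d 11 of 22 (50%, 28.2 to 71.8), against 3 of 60 in control_7d and 1 of 42 in RA_7d. Among all barcodes that met the lower limits and the mitochondrial limit, in the gate or not, the upper limits removed 13.3%, 6.42%, 13.8% and 4.37%. Without them the RA to control ratio was 0.539 (0.313 to 0.900) at 4 dpf and 0.668 (0.439 to 1.01) at 7 dpf, and the ratio of 7 to 4 dpf was 0.854 (0.581 to 1.26) in control callus, on the other side of 1, and 1.06 (0.617 to 1.86) in RA callus. With cells without a *Ptprc* UMI as the denominator the ratio of 7 to 4 dpf was also below 1, at 0.765 (0.488 to 1.22) in control and 0.907 (0.458 to 1.96) in RA callus. The members were also deep cells, with a median of 29492.5, 17156, 41666 and 18945 UMIs, against 23379.5, 13631, 16668.5 and 9763 in Pax7-positive cells.

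Across the genome, Myog-positive cells differed from Pax7-positive cells at many genes. UMIs were summed per library and gate and compared with the quasi-likelihood test of edgeR, with the library as a block, at a false discovery rate of 0.05. Of 10006 genes tested, 1281 (12.8%) were higher in Myog-positive cells and 1394 (13.9%) were lower, with a median log2 fold change over all genes of -0.02. Some Pax7-positive cells carried a *Ptprc* UMI (17, 28, 20 and 15 cells, 9.88%, 11.9%, 17.5% and 5.15% of them), while Myog-positive cells by their rule had none. Against the 732 Pax7-positive cells without one, 1054 of 9560 genes (11.0%) were higher and 1124 (11.8%) lower, and 1031 higher and 1067 lower genes were common to both comparisons. The difference mattered for leukocyte genes. *H2-Eb1*, *Cd74*, *H2-Aa*, *H2-Ab1*, *Cd52* and *Lyz2*, genes of antigen-presenting cells and other leukocytes, were among the 10 largest falls that the naming rule gives, with log2 fold changes from -5.62 to -4.08, and all 8 macrophage markers were lower. *Cd74*, for instance, was at 3.15, 7.64, 4.74 and 5.16 CPM against 229, 407, 211 and 205 CPM (log2 fold change -5.60 ± 0.20 (SE), edgeR adjusted p = 4.68e-07). Without the cells that had a *Ptprc* UMI the *Cd74* difference was much smaller (log2 fold change -0.78 ± 0.43 (SE), edgeR adjusted p = 0.229), *Lyz2* remained lower with a smaller change (log2 fold change -0.78 ± 0.21 (SE), edgeR adjusted p = 0.0235), and the other 4 fell below the filter on low counts.

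Most myogenic regulators were higher in Myog-positive cells. Of 9 myogenic factors tested besides *Myog*, 7 were higher, 1 was lower and 1 did not pass, with a median log2 fold change of 0.77. Over all genes tested 12.8% were higher and 13.9% lower. *Myod1*, the determination factor that acts ahead of *Myog*, was at 246, 185, 209 and 206 CPM in Myog-positive and 43.6, 48.4, 75.5 and 72.0 CPM in Pax7-positive cells, with no overlap between the gates (log2 fold change 1.96 ± 0.18 (SE), edgeR adjusted p = 1.08e-04). *Mef2a*, a MADS-box partner of the myogenic factors, was at 559.9, 571, 716 and 707 against 161, 269, 224 and 202 CPM (log2 fold change 1.69 ± 0.14 (SE), edgeR adjusted p = 6.53e-05). *Mef2c* was at 32.5, 190.2, 54.6 and 202 against 22.2, 27.3, 34.2 and 56.1 CPM (log2 fold change 1.74 ± 0.33 (SE), edgeR adjusted p = 0.00422), and here the gates overlapped, since control_4d and RA_4d lay far below the 7 dpf libraries. *Six4*, a homeobox factor that acts on early muscle genes, was higher by 1.14 ± 0.16 (SE) on the log2 scale. *Myf5*, the factor of proliferating myoblasts, went the other way, at 14.7, 35.7, 61.7 and 9.02 against 208, 193, 205 and 173 CPM (log2 fold change -2.78 ± 0.32 (SE), edgeR adjusted p = 3.19e-04). *Myf6*, the factor of mature fibres, had 1 UMI in all 141 cells.

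The window before the *Myog* start site is shown because *Myog* defines these cells. It was read from the RefSeq promoter table for GRCm38.p6 as the 250 bases before the annotated start (chr1:134289754-134290003, plus strand), with capitals marking matches to the E-box letters CANNTG, the general motif of the myogenic factors' protein family, which reads the same on both strands. The *Myog* gene itself spans chr1:134289989-134292548 in GENCODE release M21, with a start inside this window.
Myog: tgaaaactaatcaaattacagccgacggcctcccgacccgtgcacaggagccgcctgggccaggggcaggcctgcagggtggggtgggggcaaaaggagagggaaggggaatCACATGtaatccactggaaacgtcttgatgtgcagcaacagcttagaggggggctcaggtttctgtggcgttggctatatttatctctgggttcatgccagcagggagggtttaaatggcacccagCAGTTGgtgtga
In this window 2 such matches stood, and 31.8% of the 32851 promoter windows of the table hold at least 2, so the count is common. A match is a description of the letters and not of binding.

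Stem cell genes were mostly lower. Of 16 tested besides *Pax7*, 11 were lower, 1 was higher and 4 did not pass (median log2 fold change -0.98). Over all genes tested 13.9% were lower and 12.8% higher. *Calcr*, the calcitonin receptor that holds satellite cells quiescent, was at 4.19, 1.70, 0 and 2.58 CPM against 74.5, 78.4, 87.4 and 201 CPM (log2 fold change -5.34 ± 0.34 (SE), edgeR adjusted p = 1.31e-05), and 3 of 141 Myog-positive cells had a *Calcr* UMI against 322 of 812 Pax7-positive cells. *Chodl*, the gene of a C-type lectin, was at 4.19, 39.9, 2.37 and 12.9 against 131, 169.9, 362 and 436 CPM (log2 fold change -3.80 ± 0.49 (SE), edgeR adjusted p = 5.86e-04). *Vcam1*, an adhesion molecule of satellite cells, was at 69.2, 81.5, 83.0 and 90.2 against 216, 262, 343 and 405 CPM (log2 fold change -1.78 ± 0.14 (SE), edgeR adjusted p = 4.78e-05), and *Msc*, a repressor of MyoD activity, had a log2 fold change of -2.29 ± 0.24 (SE). The member that rose was *Megf10*, an engulfment receptor of satellite cells, at 266, 358, 140.0 and 748 against 89.5, 124, 116 and 174 CPM (log2 fold change 1.53 ± 0.24 (SE), edgeR adjusted p = 0.00163). *Itga7*, *Fgfr4*, *Cdh15* and *Pax3* did not pass, with log2 fold changes from -0.16 to 0.13. *Myf5*, *Hey1* and *Heyl* stand in this list as well as in those of the myogenic factors and of Notch. Besides *Calcr* and the leukocyte genes, the largest falls included *Bmp6* and *Csmd1*. *Bmp6*, a bone morphogenetic protein, was at 19.9, 14.4, 11.9 and 18.0 against 116, 194, 307 and 568 CPM (log2 fold change -3.83 ± 0.33 (SE), edgeR adjusted p = 6.09e-05), and *Csmd1*, a large membrane protein, had a log2 fold change of -4.29 ± 0.41 (SE).

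Of 10 fusion genes tested 4 were higher (against 12.8% of all genes), none was lower and 6 did not pass (list median 0.26). Of these, *Mymk* and *Mymx* had only 16 and 57 UMIs in Pax7-positive cells and so reached the filter on low counts largely through Myog-positive cells. This makes the count no measure of the list. *Mymk* (myomaker) and *Mymx* (myomixer), the membrane proteins required for myoblast fusion, were at 140.5, 232, 121 and 298 and 294, 249.6, 213 and 273 CPM. In Pax7-positive cells *Mymk* was at 2.24, 1.32, 0 and 0.558 CPM and *Mymx* at 7.97, 6.35, 0 and 0.279 CPM, where 0 UMIs in RA_4d allow up to 1.42 CPM. Every Myog-positive library thus lay above every Pax7-positive one. The log2 fold change was 7.44 ± 0.36 (SE) for *Mymk* and 6.19 ± 0.48 for *Mymx* (edgeR adjusted p = 3.16e-06 and 4.07e-05). *Mymk* was detected in 17, 38, 8 and 30 Myog-positive cells, or 66.0% of them (36.9% when each cell was thinned to 4000 UMIs), against 0.0774% of the leukocytes, whose median depth was 13354 UMIs against 20572 in Myog-positive cells. At least 1 of *Mymk* and *Mymx* was seen in 111 of 141 members. *Jam3*, a junctional adhesion molecule, was at 287, 252, 249 and 326 against 68.5, 73.6, 66.5 and 38.2 CPM (log2 fold change 2.30 ± 0.21 (SE), edgeR adjusted p = 8.79e-05), and *Cav3*, the muscle caveolin, at 30.4, 71.3, 4.74 and 50.3 against 11.0, 2.65, 6.17 and 4.74 CPM (log2 fold change 2.82 ± 0.55 (SE), edgeR adjusted p = 0.00492). The cadherin *Cdh2* and the metalloproteinase *Adam12* were among those that did not pass (edgeR adjusted p = 0.457 and 0.436).

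Sarcomere genes were higher, embryonic isoforms among them. All 15 thin filament genes tested were higher, of 17 in the list, against 12.8% of all genes, with a median log2 fold change of 3.39. *Actc1* was at 1.5, 0.265, 0.95 and 0.837 CPM in Pax7-positive cells (log2 fold change 9.94 ± 0.26 (SE), edgeR adjusted p = 3.42e-08), the largest rise that the naming rule gives, and *Acta1* at 19.7, 4.24, 1.90 and 3.07 CPM (log2 fold change 7.19 ± 0.49 (SE), edgeR adjusted p = 2.02e-05). *Tnnt2*, the cardiac and embryonic troponin T, was at 787, 554, 927 and 820.0 against 46.1, 19.6, 3.32 and 6.69 CPM (log2 fold change 5.66 ± 0.52 (SE), edgeR adjusted p = 9.41e-05), and *Tnni1*, slow troponin I, at 146, 175, 111 and 199.8 against 11.0, 2.65, 2.37 and 1.95 CPM (log2 fold change 5.26 ± 0.39 (SE), edgeR adjusted p = 3.26e-05). Nebulin (*Neb*), which spans the thin filament, was higher by 3.22 ± 0.36 (SE) on the log2 scale. Of 10 thick filament and titin genes 8 were higher and 2, *Mybpc1* and *Myom1*, did not pass (list median 4.07). *Myh3*, embryonic myosin heavy chain, was at 262, 256, 259 and 419 against 1.74, 1.32, 1.42 and 7.25 CPM (log2 fold change 6.80 ± 0.27 (SE), edgeR adjusted p = 9.40e-07). *Mylpf*, a fast myosin light chain, was at 637, 1051, 541 and 1084 against 122, 7.94, 12.3 and 3.07 CPM (log2 fold change 5.66 ± 0.84 (SE), edgeR adjusted p = 0.00114). *Ttn*, the titin that sets sarcomere length, was at 1658, 1259, 1760.1 and 1762 against 273, 159, 211 and 58.3 CPM (log2 fold change 3.45 ± 0.33 (SE), edgeR adjusted p = 1.09e-04). *Klhl41*, a kelch protein of the sarcomere, was higher by 5.19 ± 0.69 (SE) on the log2 scale. Of the 15 and 10 genes tested in these lists, 2 and 4 had fewer than 50 UMIs in Pax7-positive cells. *Acta1* (110 UMIs) and *Tnni1* (66 UMIs) were low there outside control_4d. Such genes reached the filter on low counts largely through the gate where they are high, which makes the counts no measure of the lists.

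Genes of adult fibres were in part absent. Of 14 adult fibre genes, 6 had enough UMIs to be tested, and 5 were higher, against 12.8% of all genes. Of the 6, 2 had fewer than 50 UMIs in Pax7-positive cells and reached the filter on low counts largely through Myog-positive cells. The count is therefore no measure of the list. *Myh2* and *Myh4*, 2 adult fast myosins, and *Ckmt2*, mitochondrial creatine kinase, had 0 UMIs in every library of Myog-positive cells, which allows up to 0.901 CPM over the 4 libraries together, and slow myosin *Myh7* had 3 UMIs in 1 cell of control_4d. *Ckm*, muscle creatine kinase, was at 10.5, 53.5, 4.74 and 72.2 CPM and came from 1, 5, 1 and 5 cells. The genes that rose were the muscle phosphoglycerate mutase *Pgam2* (log2 fold change 5.47 ± 0.42 (SE), edgeR adjusted p = 3.72e-05), myoglobin (*Mb*, log2 fold change 2.64 ± 0.37 (SE), edgeR adjusted p = 8.88e-04), muscle enolase (*Eno3*, log2 fold change 1.68 ± 0.25 (SE), edgeR adjusted p = 0.00118), *Atp2a1*, the fast sarcoplasmic calcium pump (at 232, 219.9, 189.8 and 389 against 40.4, 42.4, 40.4 and 15.6 CPM, log2 fold change 3.00 ± 0.35 (SE), edgeR adjusted p = 3.07e-04), and *Myh1*, another adult fast myosin, seen in 30 of 141 cells, at 16.8, 56.9, 14.2 and 14.2 against 1.99, 2.65, 1.90 and 4.46 CPM (log2 fold change 3.2 ± 0.45 (SE), edgeR adjusted p = 8.66e-04). *Acta1* was concentrated in few cells, whereas *Tpm1*, a tropomyosin, was seen in 136 of 141 and *Ttn* in 131. *Acta1* was seen in 15, 18, 5 and 18 cells, 25 cells had 10 or more UMIs of it, and 1 cell held 75.0% of its UMIs in control_4d and 81.0% in RA_4d.

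**Figure D2:**
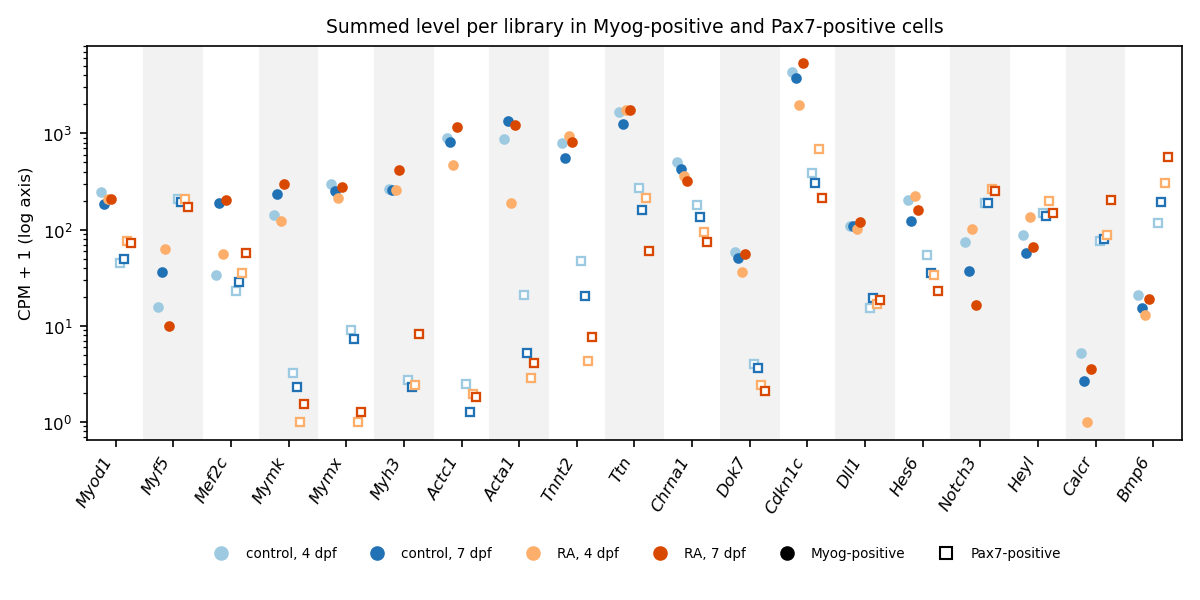
Summed level of 19 genes in Myog-positive (filled circles) and Pax7-positive cells (open squares), as CPM plus 1 on a log axis, with 1 point per library and colours for the 4 libraries. The gates lie far apart at *Mymk*, *Mymx*, *Myh3* and *Actc1*, and change order at *Myf5*, *Notch3*, *Heyl*, *Calcr* and *Bmp6*, where Pax7-positive cells lie higher.

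Most of the tested genes for excitation and innervation were higher as well, against 12.8% of all genes tested. Of the 13 excitation-contraction and 10 receptor and synapse genes, 9 and 8 had enough UMIs to be tested. *Stac3* and *Dok7* were low in Pax7-positive cells and so reached the filter on low counts largely through Myog-positive cells. This makes the counts no measure of the lists. Of 9 excitation-contraction genes tested 8 were higher (list median 1.53), led by *Srl*, a calcium-binding protein of the sarcoplasmic reticulum, at 97.5, 73.9, 97.3 and 115 against 14.2, 10.1, 12.3 and 6.97 CPM (log2 fold change 3.23 ± 0.22 (SE), edgeR adjusted p = 2.12e-05) and *Stac3*, an adaptor of the voltage sensor, at 39.8, 42.5, 42.7 and 38.7 against 5.23, 5.29, 6.17 and 3.35 CPM (log2 fold change 3.14 ± 0.23 (SE), edgeR adjusted p = 3.26e-05). Of 8 acetylcholine receptor and synapse genes 6 were higher (list median 1.32). The receptor alpha subunit *Chrna1* was at 505, 427, 363 and 322 against 178, 133, 93.5 and 72.8 CPM (log2 fold change 1.91 ± 0.14 (SE), edgeR adjusted p = 2.83e-05). The fetal gamma subunit *Chrng* was at 50.3, 36.5, 66.4 and 29.7 against 16.9, 6.35, 18.5 and 2.79 CPM (log2 fold change 2.27 ± 0.28 (SE), edgeR adjusted p = 4.35e-04), whereas its adult counterpart *Chrne* had 1 UMI, in RA_7d. *Dok7*, which activates the receptor kinase MuSK, was at 57.7, 49.2, 35.6 and 55.4 against 2.99, 2.65, 1.42 and 1.12 CPM (log2 fold change 4.65 ± 0.28 (SE), edgeR adjusted p = 1.05e-05). *Musk* itself differed less (log2 fold change 0.60 ± 0.18 (SE), edgeR adjusted p = 0.0311), and the clustering protein *Rapsn* did not pass (log2 fold change 0.34 ± 0.13 (SE), edgeR adjusted p = 0.0855).

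*Chrna1* and *Acta1* were the 2 genes, of the 5 muscle genes found in the promoter table (*Myog*, *Chrna1*, *Acta1*, *Actc1* and *Myh3*), whose windows held CAGCTG, the form of the E-box that myogenic factors are known to prefer. Their 250 bases before the start site in GRCm38.p6, both on the minus strand (chr2:73580339-73580588 and chr8:123894776-123895025), are shown with every CANNTG match in capitals.
Chrna1: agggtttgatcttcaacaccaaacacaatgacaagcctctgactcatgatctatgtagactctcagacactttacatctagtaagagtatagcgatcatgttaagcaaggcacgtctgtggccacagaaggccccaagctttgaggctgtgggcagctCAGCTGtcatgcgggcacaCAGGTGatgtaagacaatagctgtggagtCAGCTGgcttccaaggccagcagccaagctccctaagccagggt
Acta1: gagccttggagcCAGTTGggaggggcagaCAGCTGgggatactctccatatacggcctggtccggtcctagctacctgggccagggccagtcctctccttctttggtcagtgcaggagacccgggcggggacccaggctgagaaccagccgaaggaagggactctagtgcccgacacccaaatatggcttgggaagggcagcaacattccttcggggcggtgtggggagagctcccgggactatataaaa
In *Chrna1* the CAGCTG matches began at -92 and -44, counted from the last base before the start as -1, and a CAGGTG match lay between them at -73. In *Acta1* the CAGCTG match began at -221 and a CAGTTG match at -238. Of all 32851 windows of the table, 13.0% held at least 1 CAGCTG and 1.26% at least 2, and 66.2% held a CANNTG of any kind.

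Of 9 genes of cell cycle exit 4 were higher and 1 was lower, against 12.8% and 13.9% of all genes tested. No proliferation gene passed. *Cdkn1c*, the inhibitor p57, was at 4306, 3746, 1966 and 5329.9 CPM in Myog-positive cells against 391, 305, 690.4 and 213 CPM (log2 fold change 3.44 ± 0.42 (SE), edgeR adjusted p = 4.04e-04). *Cdkn1a*, the inhibitor p21, was at 465, 462, 401 and 407 against 131, 184, 169.5 and 225 CPM (log2 fold change 1.41 ± 0.16 (SE), edgeR adjusted p = 3.00e-04), and *Rb1*, the retinoblastoma protein, at 180.3, 217, 168 and 334 against 46.3, 66.2, 58.4 and 61.9 CPM (log2 fold change 2.02 ± 0.16 (SE), edgeR adjusted p = 5.01e-05). The inhibitor *Cdkn1b* was lower (log2 fold change -0.51 ± 0.15 (SE), edgeR adjusted p = 0.0329). None of 16 proliferation genes passed in either direction (list median 0.23). *Mki67*, at 72.3, 70.5, 145 and 16.8 against 56.6, 89.2, 39.9 and 41.6 CPM, had an edgeR adjusted p of 0.571, and *Pcna*, at 105, 90.0, 75.9 and 61.9 against 121, 142, 107 and 114 CPM, came nearest to the threshold (log2 fold change -0.46 ± 0.15 (SE), edgeR adjusted p = 0.0515).

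Notch genes went both ways. *Dll1*, a Notch ligand, was at 108, 107, 99.6 and 119 against 14.5, 18.5, 15.7 and 17.6 CPM (log2 fold change 2.81 ± 0.15 (SE), edgeR adjusted p = 4.90e-06) and varied little between libraries. *Hes6*, an inhibitor of Hes1 that favours differentiation, was at 202, 121, 221 and 157 against 53.8, 34.4, 32.8 and 21.8 CPM (log2 fold change 2.39 ± 0.20 (SE), edgeR adjusted p = 5.96e-05). The receptor *Notch3* was at 73.4, 36.5, 99.6 and 15.5 against 186, 187, 262 and 251 CPM (log2 fold change -2.01 ± 0.34 (SE), edgeR adjusted p = 0.00228), and the ligand *Jag1* and the target genes *Hey1* and *Heyl* were lower, with log2 fold changes of -1.79 ± 0.28, -1.05 ± 0.28 and -0.84 ± 0.16 (SE). *Notch1*, *Notch2* and *Hes1* did not pass. *Rbpj*, the DNA-binding effector of Notch, was at 117, 121, 164 and 179 against 97.7, 111, 119.7 and 128 CPM (log2 fold change 0.42 ± 0.13 (SE), edgeR adjusted p = 0.0345). In all, 3 of 13 Notch genes were higher and 4 lower, with a list median of -0.09. Over all genes tested these shares were 12.8% and 13.9%.

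Matrix, inflammatory and early response genes were mostly lower in Myog-positive cells. Beside the list counts given here, 13.9% of all genes tested were lower and 12.8% higher. Against Pax7-positive cells without a *Ptprc* UMI 11.8% were lower. Of 13 extracellular matrix genes 11 were lower, led by the basement membrane collagens *Col4a1* (5.24, 66.2, 0 and 102 against 160.2, 297, 296 and 554 CPM, log2 fold change -2.98 ± 0.45 (SE), edgeR adjusted p = 0.00133) and *Col4a2* (log2 fold change -2.86 ± 0.37 (SE), edgeR adjusted p = 6.06e-04), and *Lama5*, a laminin chain, was higher (log2 fold change 0.75 ± 0.16 (SE), edgeR adjusted p = 0.00868). Of 12 immediate early and heat shock genes 11 were lower, *Egr1* at 39.8, 43.3, 56.9 and 92.8 against 85.2, 112, 343 and 313 CPM (log2 fold change -1.58 ± 0.21 (SE), edgeR adjusted p = 7.25e-04) and the heat shock gene *Hspa1a* with a log2 fold change of -2.18 ± 0.35 (SE). These genes are known to respond to dissociation. Of 12 inflammatory response genes 9 were lower, among them the NF-kB subunit *Nfkb1* (86.0, 79.0, 80.6 and 79.9 against 174, 164, 201 and 203 CPM, log2 fold change -1.08 ± 0.13 (SE), edgeR adjusted p = 4.35e-04), and 9 of 11 were lower against Pax7-positive cells without a *Ptprc* UMI. Of 12 interferon and antigen presentation genes 7 were lower, but 4 of 11 against the cells without *Ptprc*. *H2-D1*, a class I antigen-presenting molecule, was lower in both comparisons (log2 fold change -1.45 ± 0.14 (SE), edgeR adjusted p = 1.05e-04, and log2 fold change -0.96 ± 0.17 (SE), edgeR adjusted p = 0.00365). The part of leukocyte RNA in these lists was otherwise not tested.

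Genes of oxidative metabolism were mostly higher. Beside the list counts given here, 12.8% of all genes tested were higher and 13.9% lower. Of 16 oxidative phosphorylation genes 14 were higher with a list median of 0.74, such as *Cycs*, cytochrome c, at 465, 456, 382 and 315 against 268, 229.8, 123 and 108 CPM (log2 fold change 1.32 ± 0.16 (SE), edgeR adjusted p = 3.75e-04) and *Ndufa4*, a respiratory chain subunit, at 946, 903, 987 and 843 against 711, 614, 394 and 374 CPM (log2 fold change 0.96 ± 0.16 (SE), edgeR adjusted p = 0.00204). Of 12 glycolysis genes 5 were higher, *Aldoa* by 0.84 ± 0.15 and *Gapdh* by 0.68 ± 0.11 (SE) on the log2 scale, while *Hk2*, a hexokinase, was lower (log2 fold change -0.85 ± 0.26 (SE), edgeR adjusted p = 0.0353). In the dystrophin complex 6 of 12 genes were higher, and *Dmd*, dystrophin, was lower (log2 fold change -0.83 ± 0.26 (SE), edgeR adjusted p = 0.0397). Nestin (*Nes*), an intermediate filament of myoblasts, was higher (log2 fold change 1.77 ± 0.19 (SE), edgeR adjusted p = 2.27e-04), and vimentin (*Vim*) was lower (log2 fold change -0.39 ± 0.11 (SE), edgeR adjusted p = 0.0255). Of 8 IGF and myostatin genes *Igfbp5* (-1.79 on the log2 scale) and *Fstl1* (-1.57) were lower and none higher, and *Mstn*, myostatin, had no UMI. Of 6 imprinted genes *Peg3* and *Plagl1* were lower (-0.56 and -1.24 on the log2 scale). *Acta2*, smooth muscle actin and a gene that early myocytes are also known to express, was at 2319, 1882, 951 and 1512 against 484, 659, 192 and 329.7 CPM (log2 fold change 2.16 ± 0.14 (SE), edgeR adjusted p = 1.72e-05).

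**Figure D3:**
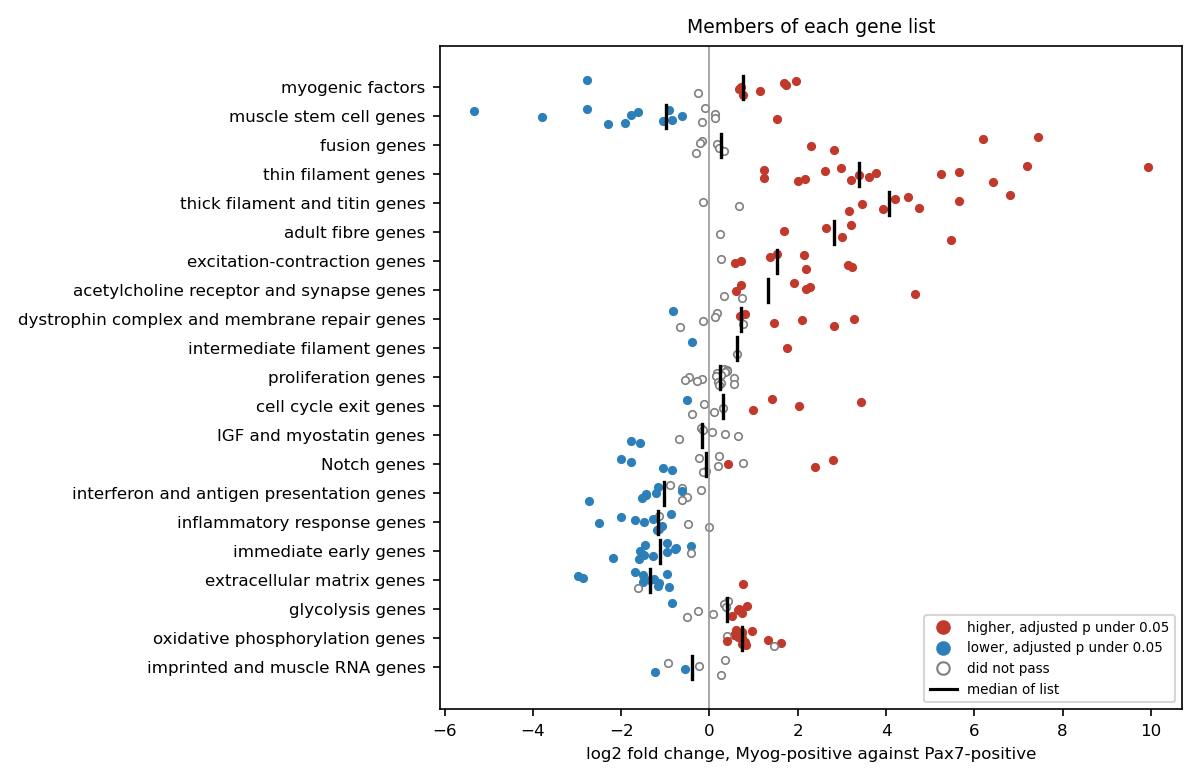
Log2 fold change of Myog-positive against Pax7-positive cells for the tested members of 21 gene lists (1 point a gene, without *Myog*, *Des*, *Pax7* and *Ptprc*); red points were higher and blue points lower with an edgeR adjusted p under 0.05, open points did not pass, and black bars are list medians. Thin filament genes lie to the right of 0 without exception, proliferation genes cluster at 0, and matrix and immediate early genes lie mostly to the left.

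With RA_4d, the library of 11 members, left out of the fit, 1242 of 10997 genes were higher and 1326 lower. The list counts then were 7 higher and 1 lower of 9 for the myogenic factors, 6 higher of 10 for fusion, 16 of 16 for thin filament genes, 0 of 16 either way for proliferation, 1 higher and 10 lower of 16 for the stem cell genes, 2 higher and 4 lower of 13 for Notch, 9 lower of 12 for immediate early, 7 lower of 14 for inflammatory and 10 lower of 12 for interferon genes. No gene of the cell cycle exit, dystrophin complex or glycolysis lists was then lower. Of the 76 genes called and given here with a fold change, 67 kept their call with each library left out in turn. The other 9 were *Cdkn1b*, *Dmd*, *Hey1*, *Hk2*, *Igfbp5*, *Musk*, *Peg3*, *Rbpj* and *Vim*, with highest edgeR adjusted p from 0.0516 (*Peg3*) to 0.179 (*Musk*). Against Pax7-positive cells without a *Ptprc* UMI, *Hk2* and *Musk* did not pass either (edgeR adjusted p = 0.0552 and 0.0546).

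Genes were also ordered by how closely they followed *Myog* from cell to cell, by Spearman correlation of CPM over the 953 cells of both gates and 9461 genes, as a description in which the points share libraries and depth. Since the gates were split on *Myog*, the order is in part set by the rule. The 10 highest were *Mymk* (rho 0.756), *Gm28653* (0.718), *Mymx* (0.673), *Rgs16* (0.650), *Dok7* (0.649), *Arpp21* (0.611), *Zbtb18* (0.603), *Mycl* (0.593), *Tnnt2* (0.580) and *Rbm24* (0.580). *Gm28653*, a long noncoding RNA on chromosome 1 (chr1:20669882-20684298, plus strand, 46607 bases before *Il17a*), was at 335, 173, 486 and 260.4 CPM in Myog-positive cells. In Pax7-positive cells it was at 5.23, 12.4, 2.85 and 5.30 CPM (log2 fold change 5.52 ± 0.42 (SE), edgeR adjusted p = 3.53e-05), and it was seen in 112 of 141 Myog-positive cells (79.4%), 50 of 812 Pax7-positive cells (6.16%) and 0.0774% of leukocytes. *Mycl*, a member of the MYC family, was at 60.8, 57.7, 52.2 and 47.7 against 1.74, 5.03, 1.42 and 0.279 CPM (log2 fold change 4.76 ± 0.40 (SE), edgeR adjusted p = 5.90e-05), and *Rbm24*, an RNA-binding splicing factor of muscle, at 503, 451, 448 and 489 against 65.0, 72.5, 57.9 and 66.7 CPM (log2 fold change 2.95 ± 0.13 (SE), edgeR adjusted p = 1.25e-06). *Zbtb18*, a zinc finger repressor, was higher by 3.37 ± 0.17, *Rgs16*, a regulator of G protein signalling, by 4.09 ± 0.21 and *Arpp21*, an RNA-binding phosphoprotein, by 3.71 ± 0.27 (SE) on the log2 scale.

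The members differed widely among themselves. *Myog* itself ranged from 41.2 to 6922 CPM per cell. When the 141 cells were cut into a low, a middle and a high group of 47 by their *Myog* CPM, which is a description, the summed thin filament level went from 1927 to 5153 to 11479 CPM from the low to the high group. Fusion genes went from 833 to 1222.5 to 1972 CPM, *Cdkn1c* from 1108 to 3536 to 7632 CPM and *Actc1* from 4.31 to 348 to 2299 CPM. Proliferation genes went the other way, from 1507 to 1120.2 to 276 CPM, and *Mki67* from 127 to 65.7 to 8.15 CPM. *Chrna1* varied little, at 356, 445 and 453 CPM, as did the Notch list (1084, 1040.3 and 964 CPM). The median depth of the 3 groups was 23311, 18156 and 21622 UMIs, and RA_4d gave 7, 2 and 2 cells to them.

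**Figure D4:**
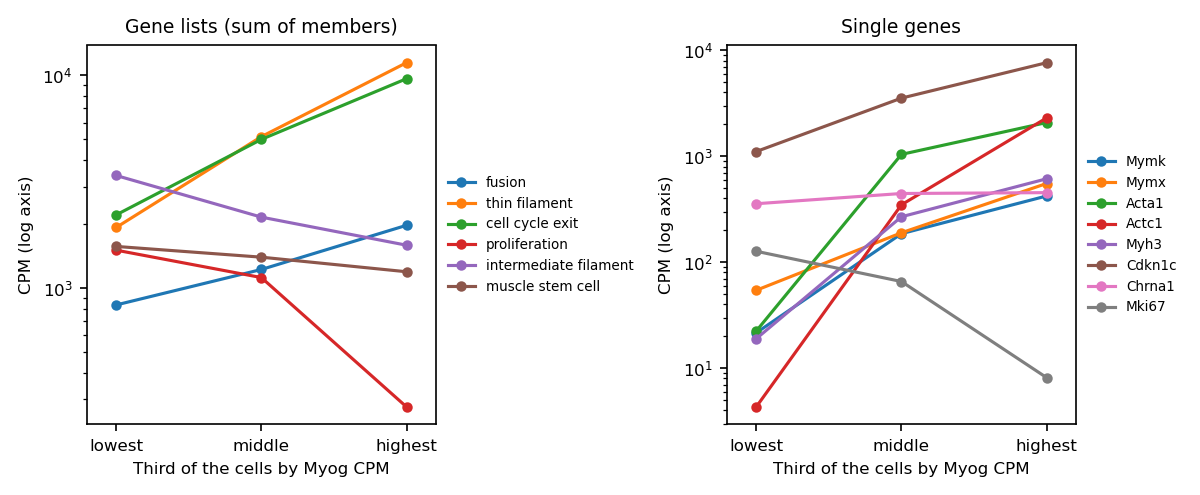
Summed CPM of 6 gene lists (left) and 8 single genes (right), on log axes, in the 141 Myog-positive cells cut by *Myog* CPM into a low, a middle and a high group of 47 cells each. Fusion, thin filament and cell cycle exit genes go up from the low to the high group while proliferation genes drop from 1507 to 276 CPM.

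A part of the members carried a proliferation signature. UMIs of at least 8 of the 16 proliferation genes were present in 28 of 141 cells (19.9%, 13.6 to 27.4), namely 10, 9, 5 and 4 cells or 31.2%, 15.8%, 45.5% and 9.76% of each library. This is a range and not a cell type, and 10 more cells had 6 or 7 of the genes. These cells were deeper (median 35012 against 18945 UMIs), and after thinning each cell to 4000 UMIs 10, 12, 2 and 5 cells had UMIs of at least 3 of the genes, so that the share in RA_4d was 18.2% in place of 45.5%. Of the 28 cells, 21 also had a *Mymk* or *Mymx* UMI and 19 a *Pax7* UMI, against 90 and 62 of the other 113 cells. Summed *Myog* was 843 CPM in the 28 cells against 1964 CPM in the other 113. *Cdkn1c* was 1472 against 5081 CPM and *Acta1* 15.8 against 1437.5 CPM, whereas *Myod1* was 210.3 against 210.7 CPM. In RA_7d, called doublets with 12 and 8 of the genes were among the 4 cells, so the share there rested in part on doublets. The part of free RNA in this signature was not tested.

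No test was run on Myog-positive cells alone between libraries, 1 a condition, so levels of Myog-positive cells are set side by side. A gene was called when its log2 ratio, with a pseudocount of 10 CPM, passed 2-fold either way, with at least 50 UMIs over both libraries and at least 25 CPM in the higher. Of 5374 genes compared at 7 dpf, 48 (0.893%) were higher and 89 (1.66%) lower in RA than in control callus, and without the called doublets 52 and 146. Of 4068 genes at 4 dpf, 38 (0.934%) were higher and 48 (1.18%) lower, so that 44.2% of the calls were higher, against 30.9% with TMM scaling. From 4 to 7 dpf, 97 of 5538 genes (1.75%) were higher and 25 (0.451%) lower in control callus, and 228 of 3824 (5.96%) higher and 133 (3.48%) lower in RA callus. The comparisons share libraries and are not independent of each other. In an edgeR fit of the difference between the gates over the libraries, 2 a side, no gene of 10006 passed a false discovery rate of 0.05 for RA against control (lowest adjusted p 0.335, 601 genes with an unadjusted p under 0.05) or for 7 against 4 dpf (lowest adjusted p 0.323, 373 genes).

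Between RA and control callus at 7 dpf a few genes of the muscle lists were called. None of 8 myogenic factors, 10 fusion genes or 7 acetylcholine receptor and synapse genes was. Of the stem cell genes 2 of 11 were higher and 1 was lower, and 1 gene was higher of 8 thick filament and titin genes, of 11 excitation-contraction genes and of 8 dystrophin complex genes. Lower were 1 of 16 thin filament genes, 1 of 6 adult fibre genes and 1 of 2 intermediate filament genes. Of all genes compared, 0.893% were higher and 1.66% lower. *Mymk* was at 232 and 298 CPM in control_7d and RA_7d, *Mymx* at 249.6 and 273 CPM and *Actc1* at 813 and 1164 CPM. The sum over the thin filament list had an RA to control ratio of 1.05 (95% CI 1.01 to 1.09) at 7 dpf and 0.867 (95% CI 0.826 to 0.910) at 4 dpf. At 7 dpf its direction turned with single cells, since the ratio was 1.14 (1.1 to 1.18) without doublets and 0.978 (0.941 to 1.02) without the remaining cell with most *Col1a1* UMIs in each library as well (0.904 at 4 dpf). At 4 dpf *Acta1* was lower in RA callus, 187 against 871 CPM, and without the 1 cell with most *Acta1* UMIs in each library it remained lower, at 39.9 and 230.0 CPM. *Rbpj* was higher in RA callus by a ratio of 1.48 (95% CI 1.16 to 1.88) at 7 dpf and 1.39 (95% CI 1.02 to 1.90) at 4 dpf, short of 2-fold. In Pax7-positive cells the *Rbpj* ratios were 1.15 (95% CI 1.01 to 1.32) and 1.22 (95% CI 1.04 to 1.44), and in leukocytes 1.47 (95% CI 1.42 to 1.51) and 0.801 (95% CI 0.781 to 0.820).

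At 7 dpf the proliferation genes stood lower in RA callus. Of 12 compared, 7 were lower by more than 2-fold and none was higher, against 1.66% of all genes, and their sum had a ratio of 0.392 (95% CI 0.346 to 0.443), compared with 1.21 (95% CI 1.09 to 1.34) at 4 dpf. Without the called doublets the ratio at 7 dpf was 0.341 (0.297 to 0.390). When in each library the remaining cell with most *Col1a1* UMIs was left out as well, it was 0.342 (0.298 to 0.391) at 7 dpf and 0.693 (0.607 to 0.790) at 4 dpf, so that the direction at 4 dpf turned with 1 cell a library. *Top2a*, a topoisomerase of dividing cells, was at 24.5 CPM in RA_7d and 174 CPM in control_7d. Its UMIs came from 15, 15, 6 and 4 cells, and 1 cell held 73.7% of them in RA_7d and 45.4% in control_7d. Without these cells *Top2a* was at 6.62 and 98.3 CPM. At 4 dpf it was at 135 CPM in RA_4d and 67.8 in control_4d without the cell with most *Top2a* UMIs in each library. Without the cell with most *Col1a1* UMIs in each instead, it was at 135 and 121 CPM. In Pax7-positive cells the *Top2a* ratio of RA to control was 0.442 (95% CI 0.384 to 0.507) at 7 dpf and 1.02 (95% CI 0.834 to 1.25) at 4 dpf, and in leukocytes 0.697 (95% CI 0.646 to 0.751) and 1.83 (95% CI 1.75 to 1.91), beside 0.141 (95% CI 0.0830 to 0.225) and 1.93 (95% CI 1.45 to 2.55) in Myog-positive cells. The shares of cells with the proliferation signature, 15.8% (7.48 to 27.9) in control_7d and 9.76% (2.72 to 23.1) in RA_7d, had overlapping intervals. Among the cells behind the RA_7d share were called doublets with 12 and 8 of the genes. *Cdkn1c* was at 5329.9 CPM in RA_7d and 3746 in control_7d, a ratio of 1.42 (95% CI 1.36 to 1.48), and at 4 dpf the *Cdkn1c* ratio was 0.457 (95% CI 0.423 to 0.492), on the other side of 1. In Pax7-positive cells the *Cdkn1c* ratios went the other way at both times. They were 0.700 (95% CI 0.638 to 0.768) at 7 dpf and 1.77 (95% CI 1.64 to 1.90) at 4 dpf. In leukocytes the *Cdkn1c* ratios were 1.56 (95% CI 1.43 to 1.69) and 1.15 (95% CI 0.986 to 1.35).

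Among the genes with the largest ratios at 7 dpf, several rested on the called doublets. *Fabp4*, a fatty acid-binding protein, *Aqp1*, a water channel, and *Apod*, an apolipoprotein, were at 113, 82.5 and 86.4 CPM in RA_7d, but for each gene 1 cell held most of the UMIs (89.8%, 89.1% and 83.6%), and each of these cells was among the 3 that were called as doublets. In the 38 other cells of RA_7d they were at 13.1, 5.82 and 13.1 CPM, against 7.85, 7.85 and 8.72 CPM in the 56 of control_7d. The same held for *Gsn*, gelsolin, which went from 416 to 80.0 CPM against 97.7 CPM. *Sln*, sarcolipin, came from 4 cells in RA_7d and 3 in control_7d. Others were spread over many cells. *Dlg2*, a scaffold protein of synapses, was at 469.7, 508, 529 and 1306 CPM, in 26, 47, 11 and 40 cells, and at 1461 against 519 CPM at 7 dpf without the doublets. *Dmd* was at 172, 262, 189.8 and 814 CPM (880.2 in RA_7d without the doublets), a ratio of 3.10 (95% CI 2.70 to 3.56) at 7 dpf and 1.1 (95% CI 0.834 to 1.45) at 4 dpf. *Dmd* was also higher in RA callus in Pax7-positive cells, by 2.22 (95% CI 2.08 to 2.36) at 7 dpf and 2.07 (95% CI 1.93 to 2.22) at 4 dpf. *Dpp6*, a potassium channel subunit, was at 165, 61.1, 52.2 and 289 CPM, and so higher in RA callus at 7 dpf and lower at 4 dpf. *Scaper* and *Fhit* were higher in RA callus at both times, *Fhit* at 24.1, 39.9, 80.6 and 104 CPM and *Scaper* at 31.5, 29.7, 73.5 and 98.0 CPM. The *Scaper* difference at 4 dpf rested largely on 1 cell. Without the cell with most *Col1a1* UMIs in each library, *Scaper* was at 34.5 CPM in RA_4d and 30.3 in control_4d. The 48 genes higher in RA_7d spanned a median of 97.1 kb of genome, the 89 lower ones 21.8 kb and all genes compared 31.4 kb. At 4 dpf the medians were 78.9, 28.8 and 29.8 kb. The part of gene length in these calls was not tested.

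Several genes were lower in RA callus at both times, *Gal* and *Tagln* by less than 2-fold at 4 dpf. *Spp1*, osteopontin, was at 918, 184, 327 and 12.9 CPM in Myog-positive cells, *Postn*, periostin, at 59.8, 489, 11.9 and 64.5 CPM, *Nkain2*, a partner of the sodium pump, at 59.8, 121, 4.74 and 18.0 CPM, *Gal*, the neuropeptide galanin, at 148, 248, 97.3 and 29.7 CPM and *Tagln*, transgelin, at 51.4, 57.7, 35.6 and 9.02 CPM. *Postn* was at 489 CPM in control_7d with 43.9% of its UMIs in 1 cell, and *Gal* had 53.8% in 1 cell, without which they were at 283 and 119.5 CPM. In Pax7-positive cells and leukocytes *Postn* went the other way at 7 dpf, with RA to control ratios of 2.36 (95% CI 2.21 to 2.52) and 1.36 (95% CI 1.33 to 1.40). *Spp1* was lower in RA callus in the other gates too, at 1786, 519, 161 and 94.5 CPM in Pax7-positive cells and 4989, 1529, 1237 and 797 CPM in leukocytes, and the part of free RNA in the *Spp1* difference was not tested. *S100a4*, a calcium-binding protein, was at 717, 727, 861 and 119 CPM, lowest in RA_7d, where it was seen in 15 of 41 cells against 40 of 57 in control_7d. In Pax7-positive cells the *S100a4* ratio of RA to control was 0.448 (95% CI 0.420 to 0.477) at 7 dpf and 0.457 (95% CI 0.428 to 0.488) at 4 dpf, and in leukocytes 0.685 (95% CI 0.677 to 0.694) and 0.922 (95% CI 0.914 to 0.930). *Vim* too was lowest in RA_7d, at 2455, 2326, 2813 and 968 CPM, with a ratio of 0.416 (95% CI 0.383 to 0.451) at 7 dpf, and in Pax7-positive cells the *Vim* ratio was 0.555 (95% CI 0.538 to 0.572). At 4 dpf haemoglobin genes had the lowest ratios. *Hbb-bs*, a beta globin, was at 324, 90.9, 0 and 137 CPM, and 1 cell held 84.5% of its UMIs in control_4d. In leukocytes *Hbb-bs* was at 354, 476, 12.8 and 322 CPM, so RA_4d was the library with least haemoglobin RNA there as well. In Pax7-positive cells *Hbb-bs* went the other way, with an RA to control ratio at 4 dpf of 1.94 (95% CI 1.73 to 2.17). Among genes higher in RA_4d, *Mybpc1*, a myosin-binding protein, was at 69.2, 147, 301 and 159 CPM and *Hmga2*, a chromatin protein of growing cells, at 26.2, 21.2, 92.5 and 7.74 CPM.

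From 4 to 7 dpf, matrix genes were higher in Myog-positive cells of both conditions, with a much smaller ratio in RA callus once the doublets were left out. Of 13 extracellular matrix genes 8 were called higher in control callus and 6 of 12 in RA callus, against 1.75% and 5.96% of all genes, and the sum over the list had a ratio of 2.97 (95% CI 2.82 to 3.13) and 2.73 (95% CI 2.52 to 2.96). Without the doublets these were 2.67 (2.53 to 2.81) and 1.22 (1.11 to 1.34), and the ratio of RA to control callus at 7 dpf went from 0.818 to 0.408 (0.384 to 0.432). *Col1a1*, type I collagen, was at 67.1, 947, 21.3 and 762 CPM, *Dcn*, decorin, at 10.5, 167, 0 and 383 CPM and the imprinted RNA *Meg3* at 7.34, 155, 0 and 237 CPM. In leukocytes these genes were also higher at 7 than at 4 dpf in both conditions, with *Col1a1* at 297, 1408, 249 and 2077 CPM, *Dcn* at 133, 214, 62.4 and 624 CPM and *Meg3* at 13.8, 117, 14.5 and 194 CPM. In Pax7-positive cells the ratio of 7 to 4 dpf was 2.39 (95% CI 2.25 to 2.54) in control and 6.98 (95% CI 6.5 to 7.51) in RA callus for *Col1a1*, and 0.510 (95% CI 0.447 to 0.580), which is lower at 7 dpf, and 20.03 (95% CI 16.5 to 24.6) for *Dcn*. In RA_7d, doublets held 63.5% of the *Col1a1* UMIs in 1 cell and 78.8% of the *Dcn* UMIs in another, and without the 3 doublets the levels were 134 and 27.6 CPM, against 779 and 146 CPM in control_7d. In control_7d 1 cell, not called as a doublet and with 3 *Myog* UMIs, held 35.2% of the *Col1a1*, 42.6% of the *Dcn* and 53.0% of the *Meg3* UMIs. Without the doublets and, in each library, the remaining cell with most *Col1a1* UMIs, *Col1a1* was at 452 CPM in control_7d and 126 in RA_7d, *Dcn* at 75.6 and 28.5 CPM and *Meg3* at 74.7 and 192 CPM. The matrix list then had a ratio of RA to control callus at 7 dpf of 0.568 (0.534 to 0.604), and a ratio of 7 to 4 dpf of 2.00 (1.89 to 2.12) in control and 1.23 (1.12 to 1.35) in RA callus. Free matrix RNA in the droplets and RNA of the cells themselves cannot be told apart here. *Pcdh15*, a protocadherin, was also higher at 7 dpf, at 4.19, 137, 26.1 and 130.2 CPM in Myog-positive cells and 0.334, 5.80, 0.671 and 1.84 CPM in leukocytes, and *Elmo1*, an engulfment adaptor, at 41.9, 88.3, 4.74 and 217 CPM. *Igfbp5*, an IGF-binding protein of differentiating muscle, was lower at 7 dpf at 612, 168, 837 and 86.4 CPM, and *Gpx3*, a secreted peroxidase, at 218, 67.9, 363 and 60.6 CPM. In Pax7-positive cells *Igfbp5* was at 1132, 879, 1194 and 1616 CPM, with a ratio of 7 to 4 dpf of 0.776 (95% CI 0.742 to 0.812) in control and 1.35 (95% CI 1.29 to 1.42) in RA callus.

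**Figure D5:**
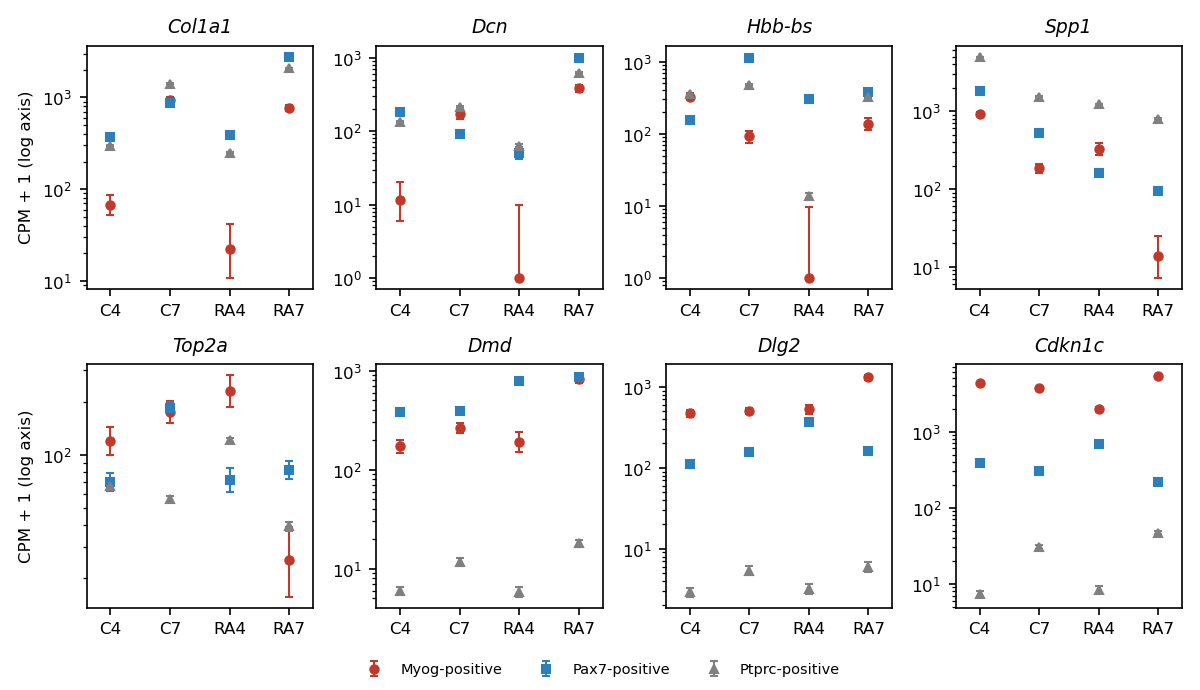
Level of 8 genes in Myog-positive cells (red circles), Pax7-positive cells (blue squares) and leukocytes (grey triangles), as CPM plus 1 on log axes, in control_4d (C4), control_7d (C7), RA_4d (RA4) and RA_7d (RA7); error lines are exact 95% Poisson intervals, and doublets are included. *Col1a1* and *Dcn* go up from 4 to 7 dpf in leukocytes as well as in Myog-positive cells, while *Dcn* goes down in Pax7-positive cells of control callus, and *Dlg2* and *Cdkn1c* are far higher in Myog-positive cells than in leukocytes in each library.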

How the data were processed

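The deposited matrices hold counts of UMIs, not normalised, that the authors obtained for each gene in each barcode of their droplet libraries (Cell Ranger 7.0.1 and mm10 per the submitters' processing notes). Of 34038 barcodes, 25479 with 4000 to 50000 UMIs, 2000 to 7000 genes and at most 8% mitochondrial UMIs were kept, holding 108438906, 141714572, 83405494 and 156567619 UMIs in control_4d, control_7d, RA_4d and RA_7d. Doublets were called with Scrublet (scanpy 1.11.5, Python 3.11.15) and kept, and levels without them were computed after the data were seen.

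UMIs were summed per library and gate, and Myog-positive and Pax7-positive cells were compared with edgeR 4.0.16 in R 4.3.3 (TMM factors, library as a block, Benjamini-Hochberg adjustment), after edgeR's default filter on low counts. DESeq2 1.42.0 was an alternative. The procedure was tested on simulated data. Both gates of a library come from the same pool, and p-values measure the spread between 4 libraries of different condition. Between libraries only ratios of sums were computed, with exact Poisson intervals, and shares have exact binomial intervals. Shares of cells with a UMI were repeated after thinning each cell to 4000 UMIs. Floors take 3 counts as the limit that a count of 0 allows.

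The genes named were the leading members of 21 gene lists, the 10 largest changes in each direction with at least 50 CPM in the higher gate of every library, the 5 largest rises and falls past 2-fold between libraries, and the 10 genes that followed *Myog* most closely. Some genes that the rule gives are not reported here. The cells, lists and rules were chosen with earlier results of these data known.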

Additional observations from a re-analysis of the deposited data

Results flagged for a closer look

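In 2 libraries, cells that met the *Myog*, *Des* and *Ptprc* conditions were left out for high depth, 22 barcodes in control_4d, where 32 were kept, and 11 in RA_4d, where 11 were kept.

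Several gene lists had an RA to control ratio of summed CPM in Myog-positive cells on opposite sides of 1 at 7 and at 4 dpf, with intervals for counting error that left out 1. With 1 library a condition, none of these differences was tested. Proliferation genes had a ratio of 0.392 at 7 dpf and 1.21 at 4 dpf, but of 0.342 and 0.693 without doublets and the remaining cell with most *Col1a1* UMIs in each library, so the opposite sides rested on single cells. Genes of cell cycle exit had ratios of 1.36 and 0.570, most of their UMIs being of *Cdkn1c*. Intermediate filament genes, without *Des*, which chose the cells, and with *Vim* the most abundant, had ratios of 0.439 and 1.11, and thin filament genes of 1.05 and 0.867, but of 0.978 (0.941 to 1.02) and 0.904 without the same cells. Inflammatory response genes had ratios of 1.17 and 0.824, and immediate early genes of 1.32 and 0.843. The sums over the cell cycle exit, intermediate filament, inflammatory and immediate early lists were not computed without doublets or single cells.

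Between times, genes of cell cycle exit had a ratio of 7 to 4 dpf of 0.923 in control and 2.20 in RA callus, and imprinted and muscle RNA genes of 1.22 and 0.905. The 11 cells of RA_4d enter every ratio at 4 dpf and every ratio between times in RA callus.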

How the results depend on the processing

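Of the values that other settings gave for 14 shares and counts, 71 stayed within the interval for counting error of a share ratio or within 1.5-fold of a count, and 21 did not. Among the former, the ratio of the Myog-positive share from 4 to 7 dpf went from 1.27 to 0.847 in control and from 1.86 to 1.13 in RA callus with a looser cell filter, and to 0.854 and 1.06 without upper limits on depth, so its direction in control callus depended on these settings. Of the values for 20 named genes, 235 kept direction and side of the threshold and 1 did not. The exception was *Cd74* against Pax7-positive cells without a *Ptprc* UMI (-0.78, edgeR adjusted p = 0.229). With cells without *Ptprc* as denominator the ratio of the Myog-positive share from 4 to 7 dpf was 0.765 in control and 0.907 in RA callus. With no replicate block by library, 837 genes were higher and 962 lower in Myog-positive cells, and DESeq2 called 934 and 1088. Leaving out 1 library at a time gave 817 (without RA_7d) to 1242 (without RA_4d) higher and 868 (without RA_7d) to 1326 (without RA_4d) lower genes, with 844 higher without control_4d. Between libraries the counts of genes past 2-fold moved with the limits on low levels. With a pseudocount of 1 CPM they were 86 higher and 139 lower for RA_7d against control_7d, 70 and 77 for RA_4d against control_4d, and 171 and 46 for control_7d against control_4d. With at least 20 UMIs and no CPM minimum they were 101 and 165, 104 and 130, 185 and 43, and 448 and 271 for RA_7d against RA_4d. Without doublets 146 genes were lower in RA_7d than in control_7d, in place of 89. The cause of these shifts was not tested. Both gates of a library are paired by the library block. Between single libraries, no paired test was possible because the labels give each group a single replicate. A fit of RA against control callus in Myog-positive cells with time as a block, which the libraries would allow, was not run. A gate of at least 3 *Myog* UMIs left 9 cells in RA_4d and was not run for its comparisons with other libraries. The fits without upper depth limits, of the difference of effects and of list sums without doublets or single cells were chosen after seeing the data. The number of cells limits RA_4d, with 421575 UMIs in 11 cells.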

Other observations

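Genes higher in Myog-positive than in Pax7-positive cells spanned a median of 17.9 kb of genome, those lower 45.6 kb and all those tested 27.7 kb. From 4 to 7 dpf, genes higher in Myog-positive cells of control callus spanned a median of 45.0 kb and those lower 9.46 kb, against 29.8 kb for all genes compared. In RA callus these medians were 66.9, 21.4 and 32.2 kb.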
